A study of Mus musculus with 12 samples.

Results

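Collagen chains are encoded by genes named Col with a number for the type and a number for the chain. Of the 53431 gene rows in the count table, 44 were protein-coding genes with such a symbol, and all 44 are described here. They were sorted by textbook type into 11 fibrillar chains, 8 basement membrane chains (6 of type IV, with type XV and type XVIII) and 25 others. The messenger RNA came from adipose tissue of 6-month-old mice of mixed C57BL/6 x 129/SvJ background in 3 groups of 4 libraries. The first group was wild type (WT) and untreated, the second was labelled Bbs2-/- and untreated, and the third was labelled Bbs2-/- and was fed Genz-667161, an inhibitor of glucosylceramide synthase, between 2 and 6 months of age in a diet holding 0.033% of it by weight. These groups are called WT, untreated and treated below. The product of Bbs2 belongs to the BBSome, which carries membrane proteins out of primary cilia, and its loss causes Bardet-Biedl syndrome with obesity. The design asks how RNA levels differ between Bbs2-/- and WT and between treated and untreated Bbs2-/- tissue. The fat depot, the sex and whether each library is a separate mouse are not in the labels, so each p-value reflects the spread of these libraries alone, which may be technical.

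Each collagen protein is made of 3 chains wound into a triple helix. Fibrillar collagens, mainly types I and III with type V inside the fibril, form the cables that carry tension between cells. Type IV collagen forms the sheet-like network of basement membranes, which surround every adipocyte and every capillary, and types XV and XVIII sit where basement membranes meet the fibrils. Type VI collagen makes beaded filaments next to adipocytes and is abundant in fat. FACIT collagens decorate the surface of fibrils, short-chain collagens form lattices, and transmembrane collagens are anchored in the cell surface. In fat, fibroblasts and adipocyte progenitors make most fibrillar collagen, while adipocytes, endothelial cells and mural cells contribute to basement membranes. In bulk tissue, fewer cells of a type and less RNA per cell cannot be told apart.

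The 12 libraries held 16317865 to 20224200 estimated counts, of which collagen genes took 0.581 to 1.47%. Levels are in CPM (counts scaled to a library size of 1e+06) on normalized library sizes unless a sentence says otherwise. Bbs2 RNA, measured to check the labels, was 12.5 ± 0.267 CPM in WT, 61.9 ± 9.41 in untreated and 61.5 ± 5.3 in treated libraries (SD, n = 4), so it was higher where the label names its loss. Which part of the gene the allele lacks is not in the labels. Directions below are between libraries as labelled. The adipocyte markers Adipoq, Plin1 and Fabp4 were present in every library. WT 1 held 1093 CPM of epididymis markers against at most 4.77 CPM in any other library, and WT 1, WT 4, treated 1 and treated 3 held 48 to 164 counts of Foxj1, a gene of ciliated epithelium, against at most 2 elsewhere. Where a chain's call changes without WT 1 or without these 4 libraries, the value without them is given.

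Levels of different chains were compared per length, on the deposited log2 FPKM scale. In WT the highest chains on this scale were Col3a1 (8.08 ± 0.47, SD, n = 4), Col15a1 (8.0 ± 0.26), Col6a1 (7.95 ± 0.25), Col4a1 (7.94 ± 0.06), Col6a2 (7.69 ± 0.23), Col5a3 (7.63 ± 0.25) and Col4a2 (7.62 ± 0.10). Apart from Col4a1 and Col6a2, neighbours in this order differed by less than the larger of their SDs. Col1a2 (6.74 ± 0.61) and Col1a1 (6.19 ± 0.60), the chains of type I collagen, lay below them. In untreated libraries the type III gene Col3a1 stood first at 8.83 ± 0.10, and in treated libraries at 7.60 ± 0.41 it lay below Col4a1 at 8.10 ± 0.53. At the other end, 9 of the 44 chains had too few counts to be tested, with 1 to 86 counts over all 12 libraries. These were Col2a1, Col11a1, Col9a1, Col9a2 and Col10a1, which are known from cartilage, and Col19a1, Col22a1, Col25a1 and Col26a1. The remaining 35 chains were tested.

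In untreated Bbs2-/- libraries 11 of the 35 tested chains rose and 4 fell against WT, at an edgeR adjusted p under 0.05, and 20 did not pass. That is 31.4% higher and 11.4% lower. Of all 15968 tested genes, 19.6% were higher and 19.7% lower (39.2% in all). The share of higher genes among the collagens was above that of all genes and the share of lower genes below it, a difference that was not tested. Treated libraries against untreated ones gave 11 chains that fell and 4 that rose, where 18.8% of all genes were lower and 18.5% higher (37.2% in all). The median log2 fold change of the tested chains was 0.42 in the first comparison and -0.36 in the second, against -0.02 and 0.03 for all genes. Both comparisons use the same 4 untreated libraries, so a chain that is high in these libraries rises in the first and falls in the second. Of 9 tested fibrillar chains 5 rose and 1 fell in untreated libraries, and 7 fell and 1 rose with the inhibitor. Of 8 basement membrane chains none rose and 2 fell in untreated libraries, and 2 rose and none fell with the inhibitor. Of the 18 other tested chains 6 rose and 1 fell, and with the inhibitor 4 fell and 1 rose. The median log2 fold change was 0.77 and -1.26 for fibrillar chains, -0.22 and 0.17 for basement membrane chains and 0.71 and -0.65 for the others.

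**Figure D1:**
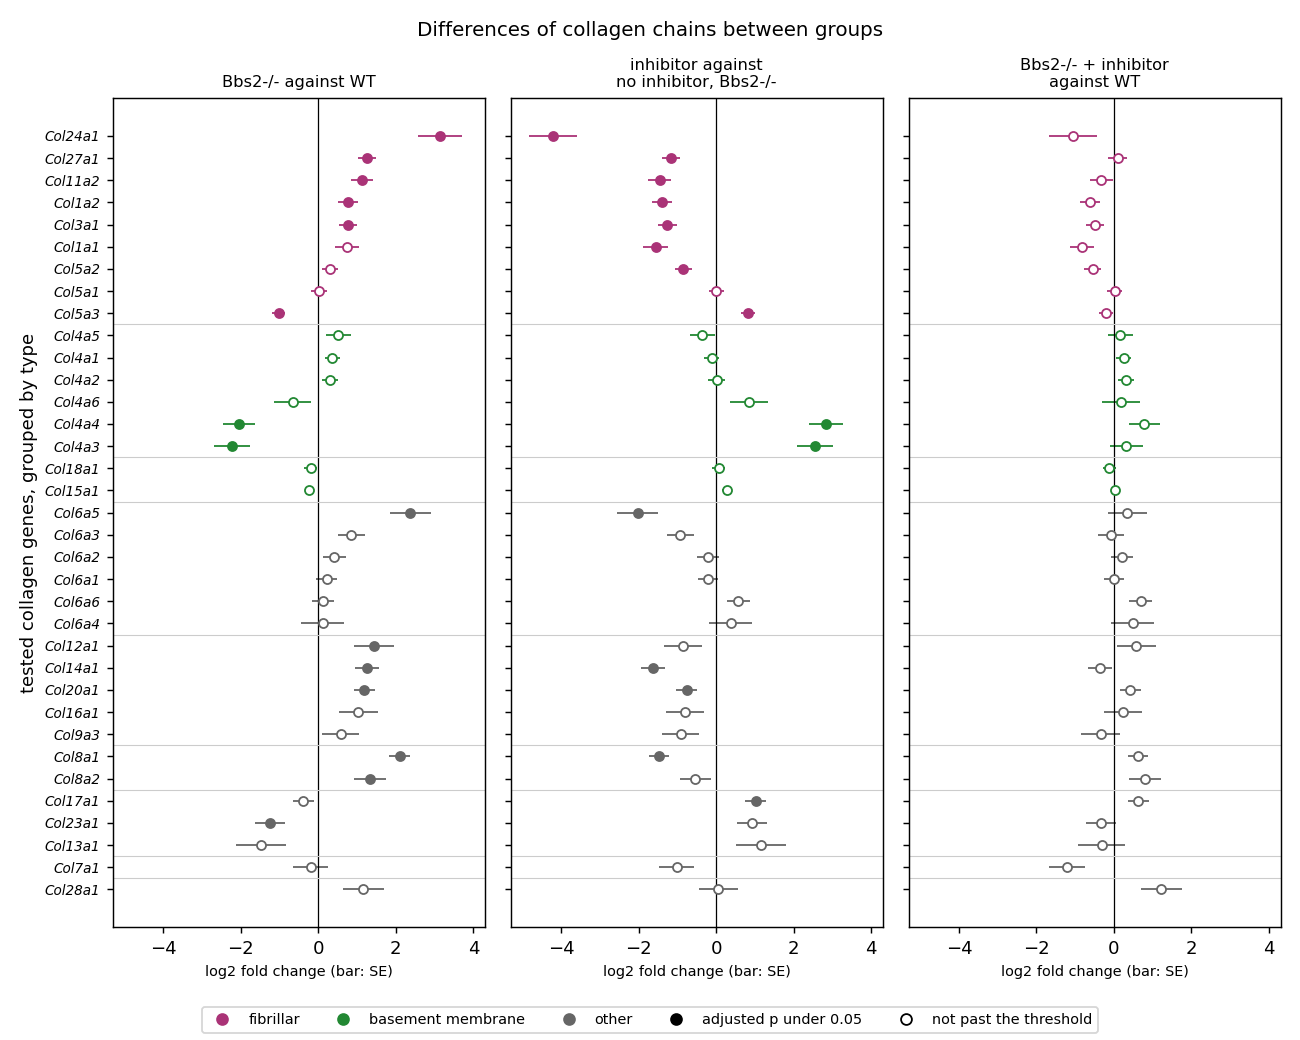
Log2 fold changes (points) with their standard errors (bars) of the 35 tested collagen chains in the 3 comparisons, grouped by type and coloured by class, with filled points for an adjusted p under 0.05. Most filled fibrillar points lie to the right in the first panel and to the left in the second. The filled points of Col5a3, Col4a3 and Col4a4 lie on the other side in both, as do those of Col23a1 in the first and Col17a1 in the second. The third panel has no filled point.

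Col3a1, the single gene of type III collagen (ENSMUSG00000026043.18, chromosome 1, 45311538 to 45349706, mm10), had 2156, 1268, 1029.8 and 1185 CPM in WT 1 to 4, 2315, 2596, 2440.1 and 2241 in untreated 1 to 4 and 1166, 1078, 1123 and 649 in treated 1 to 4. All untreated libraries lay above all others, and WT 1 was the highest of the rest. The gene rose in untreated libraries (log2 fold change 0.77, SE 0.23, edgeR adjusted p = 0.0216) and fell with the inhibitor (log2 fold change -1.26, SE 0.24, adjusted p = 0.00169). Col1a2, the α2 chain of type I collagen, had 893, 515, 318 and 467 CPM in WT, 907, 1019, 951 and 877 in untreated and 448, 386, 296 and 295 in treated libraries. WT 1 overlapped the untreated range and the treated libraries lay wholly below it. Col1a2 rose by 0.78 on the log2 scale (SE 0.26, adjusted p = 0.0314) and fell with the inhibitor to a log2 fold change of -1.40 (SE 0.26, adjusted p = 0.00163). Its partner Col1a1, the α1 chain, had 699, 366, 269 and 318 CPM in WT, 628, 712, 686 and 738 in untreated and 327, 297, 167 and 145 in treated libraries. It did not pass against WT (log2 fold change 0.74, SE 0.32, adjusted p = 0.0822) and fell with the inhibitor (log2 fold change -1.56, SE 0.32, adjusted p = 0.00303). WT 1 alone held 699 CPM, inside the untreated range, while the other 3 WT libraries held 269 to 366.

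Col1a1 passed against WT in DESeq2 (adjusted p = 0.0436), with the replicate block (0.025) and without WT 1, where it had a log2 fold change of 1.12 (adjusted p = 0.00548), and Col1a2 and Col3a1 had 1.12 and 1.05. Without the 4 libraries with Foxj1 counts the log2 fold changes were 1.11, 1.16 and 1.05, with adjusted p = 0.0144, 0.00369 and 0.0064. The rise of Col1a2 and Col3a1 did not pass when WT 2 (adjusted p = 0.0725 and 0.0575), WT 3 (0.0692 and 0.0642) or WT 4 (0.0819 and 0.0614) was left out, nor for Col1a2 without untreated 1 (0.0547), 2 (0.0628) or 3 (0.0521). The fall of these 3 genes with the inhibitor passed in each of 22 refits and other tests. Its estimates are also above 2-fold, while those of the rises of Col1a2 and Col3a1 are below 2-fold. No test against a 2-fold change was made. The per-length log2 FPKM of Col1a1 minus that of Col1a2 was -0.55 ± 0.14 in WT, -0.59 ± 0.13 in untreated and -0.80 ± 0.30 in treated libraries (SD, n = 4), which overlapped between the groups. The plot of abundant chains shows these values by library.

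**Figure D2:**
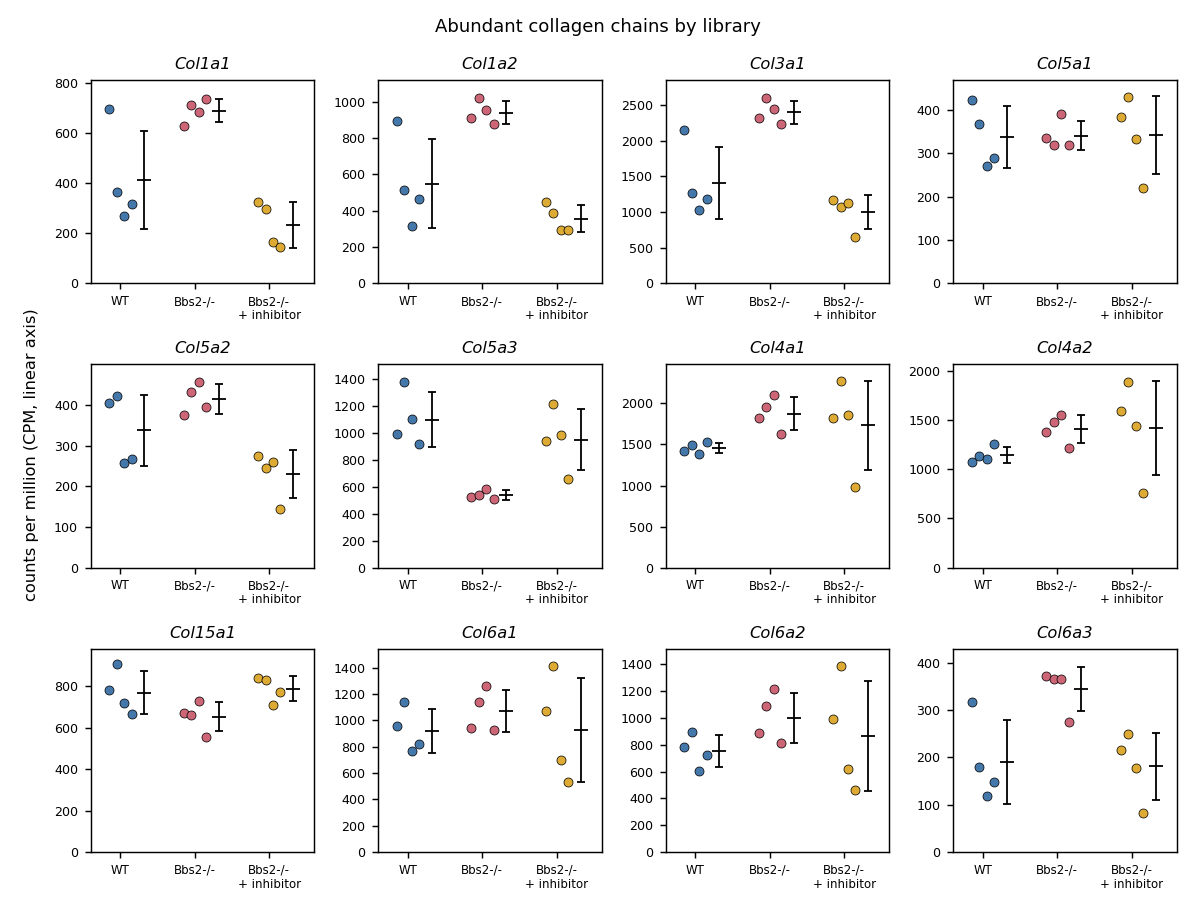
CPM (linear axis from 0) of 12 abundant collagen chains in each of the 4 libraries a group (points, replicates 1 to 4 from left to right) with the mean and SD (bar at right). The untreated libraries of Col3a1 lie above all others, WT 1 reaches the untreated range for Col1a1 and Col1a2, Col5a3 is lowest in untreated libraries at 506 to 587 CPM, and the treated libraries spread widely for Col4a1, Col4a2, Col6a1 and Col6a2.

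Type V collagen is built into type I fibrils and helps to set their width, and its 3 chains went different ways. Col5a3, the α3 chain and the most abundant of them per length in every group, had 989, 1381, 1105 and 919 CPM in WT, 521, 542, 587 and 506 in untreated and 938, 1215, 986 and 659 in treated libraries. The untreated libraries lay below all others without overlap. It fell against WT (log2 fold change -1.03, SE 0.18, edgeR adjusted p = 0.00101) and rose with the inhibitor (log2 fold change 0.82, SE 0.18, adjusted p = 0.00379), the reverse of the other called fibrillar chains, and both calls held in the 22 refits and other tests. The further demand of an estimate of at least 2-fold, which is not among these 22, keeps the fall and leaves out the rise of Col5a3. Col5a2, the α2 chain, had 375, 431, 456 and 394 CPM in untreated and 274, 245, 260.3 and 143 in treated libraries and fell with the inhibitor (log2 fold change -0.84, SE 0.21, adjusted p = 0.0091), while its value against WT was 0.30 (SE 0.21, adjusted p = 0.295). Col5a1, the α1 chain that most type V molecules hold, was 337 ± 71.1, 340.3 ± 33.3 and 342 ± 89.99 CPM in WT, untreated and treated libraries. Its log2 fold changes were 0.02 and 0.01, each with an SE of 0.20. The log2 FPKM of Col5a3 minus that of Col5a2 was 1.82 ± 0.33 in WT, 0.49 ± 0.06 in untreated and 2.14 ± 0.24 in treated libraries. Untreated libraries at 0.44 to 0.58 did not overlap WT at 1.39 to 2.20 or treated libraries at 1.87 to 2.40. The type V chains Col5a1 and Col5a3 are shown with the 120 bases just before their annotated starts, because they are related chains with different values. The sequences are from RefSeq on GRCm38.p6, 5′ to 3′ on the strand of the gene, with GC boxes (GGGCGG or its reverse complement CCGCCC) in capitals.
Col5a1 (chr2:27886305-27886424, plus strand): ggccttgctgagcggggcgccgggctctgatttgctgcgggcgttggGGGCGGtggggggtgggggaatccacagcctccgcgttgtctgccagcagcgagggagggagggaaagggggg
Col5a3 (chr9:20815068-20815187, minus strand): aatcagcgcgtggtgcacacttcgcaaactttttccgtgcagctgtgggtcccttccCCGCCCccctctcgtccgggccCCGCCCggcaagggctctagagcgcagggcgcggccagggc
Col5a1 has 1 GC box, starting at position -73 from the start, and Col5a3 has 2, at -63 and -41. In windows of this length the motif on either strand was in 18 of the 35 collagen genes with a RefSeq promoter entry and in 26.5% of all 32851 promoters. The first is counted by gene, over any of its entries, and the second by promoter, so they are not like for like. These 35 genes are not the same set as the 35 tested chains. Neither window holds a TATA box (TATAAA) or a CCAAT box (CCAAT), which were in 6.34% and 21.3% of all promoters. A match of letters shows no binding.

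The scarcer fibrillar chains moved with types I and III. Col24a1, a fibrillar chain known from developing bone, had 0.653, 0.541, 0.398 and 0.523 CPM in WT, 9.9, 2.72, 4.29 and 2.08 in untreated and 0.569, 0.163, 0.159 and 0.105 in treated libraries, that is 6 to 12, 44 to 192 and 2 to 11 counts. Every untreated library was above every other library, and untreated 1 was the highest. By estimate it rose by the most of any tested collagen (log2 fold change 3.14, SE 0.58, edgeR adjusted p = 0.0014). It also fell by the most with the inhibitor (log2 fold change -4.21, SE 0.62, adjusted p = 0.000403). Its counts in WT and treated libraries were near the floor of the low-count filter, which it passed through the untreated libraries. Both fold changes are thus set against values near the floor, and their size and rank are uncertain. Col24a1 is among the chains counted above as risen and fallen. Col27a1, known from cartilage and many embryonic tissues, was 8.14 ± 2.46, 19.4 ± 2.61 and 8.7 ± 2.36 CPM (SD, n = 4), with log2 fold changes of 1.25 (SE 0.24, adjusted p = 0.00161) and -1.16 (SE 0.23, adjusted p = 0.00255). Col11a2, a type XI chain, was 1.26 ± 0.323, 2.77 ± 0.667 and 1.01 ± 0.219 CPM, with 1.13 (SE 0.29, adjusted p = 0.00936) and -1.46 (SE 0.29, adjusted p = 0.00251), and its rise did not pass without WT 2 and WT 3 (adjusted p = 0.07). Of 11 cartilage and bone markers 4 could be tested, and Acan and Matn1 had at most 0.049 CPM as a group mean, while Comp (3.70 and -3.12) and Runx2 (1.22 and -1.51) rose against WT and fell with the inhibitor. Sox9 had -0.82 and Alpl -0.77 against WT, which did not pass, and both rose with the inhibitor (1.37 and 0.86). Of all genes 19.6% were higher and 19.7% lower against WT, and 18.5% were higher and 18.8% lower with the inhibitor. No difference of the cartilage and bone markers from these shares was tested. The part of these markers in the values of Col24a1, Col27a1 and Col11a2 was not tested.

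The abundant basement membrane chains did not pass in any comparison. Col4a1 (ENSMUSG00000031502.11, chromosome 8, 11198423 to 11312826, mm10) had 1419.7, 1494, 1387 and 1529 CPM in WT, 1822, 1959, 2097 and 1629.5 in untreated and 1822, 2271, 1853 and 982 in treated libraries. The untreated libraries lay above WT, treated 4 was the lowest library of all and treated 2 the highest, and the log2 fold changes were 0.36 (SE 0.20, adjusted p = 0.173) and -0.12 (SE 0.20, adjusted p = 0.688). The first passed in a fit of WT and untreated libraries alone (adjusted p = 0.0371) and without treated 4 (adjusted p = 0.0259). Col4a2, its partner in the α1α1α2 molecule found in most basement membranes, had 1069.8, 1133, 1105 and 1260.1 CPM in WT, 1376, 1482, 1547 and 1220.2 in untreated and 1594, 1882, 1435 and 763 in treated libraries, with log2 fold changes of 0.30 (SE 0.22, adjusted p = 0.292) and 0.01 (SE 0.21, adjusted p = 0.972). Treated 4 was again lowest and treated 2 highest. The starts of Col4a1 and Col4a2 lie head to head on chromosome 8 and overlap by 22 bases in the annotation. Their log2 FPKM difference stayed within 0.24 to 0.37 in WT, 0.36 to 0.40 in untreated and 0.16 to 0.33 in treated libraries. Col15a1, the type XV chain, had 783, 909, 717 and 668 CPM in WT, 669, 662, 727 and 557 in untreated and 841, 828, 709 and 772 in treated libraries, which overlapped (log2 fold change -0.23, SE 0.12, adjusted p = 0.143 against WT and log2 fold change 0.27, SE 0.12, adjusted p = 0.0994 with the inhibitor). It passed as lower in untreated libraries on the log2 FPKM values (limma adjusted p = 0.0315). Col18a1, the type XVIII chain whose cleaved end is endostatin, had 381, 364, 266 and 279 CPM in WT, 279, 289, 336 and 222 in untreated and 352, 327, 248 and 258 in treated libraries, with -0.20 (SE 0.17, adjusted p = 0.378) and 0.07 (SE 0.17, adjusted p = 0.761).

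The rare type IV chains Col4a3 and Col4a4, known from the α3α4α5 network of kidney and lung basement membranes, were lower in untreated libraries. Col4a4 (ENSMUSG00000067158.9, chromosome 1, 82448423 to 82586849) had 6.92, 3.04, 3.18 and 8.37 CPM in WT, 2.11, 1.14, 1.25 and 0.708 in untreated and 11.9, 9.58, 10.5 and 5.3 in treated libraries. Col4a3 (ENSMUSG00000079465.8, chromosome 1, 82586921 to 82722059) had 4.19, 1.55, 1.79 and 6.22 CPM in WT, 0.67, 0.79, 1.1 and 0.378 in untreated and 5.17, 3.27, 4.6 and 4.14 in treated libraries, or 23 to 107, 8 to 22 and 60 to 100 counts a library. For both genes every untreated library lay below every other library, and WT 1 and WT 4 were the highest in WT. Col4a4 fell against WT (log2 fold change -2.05, SE 0.42, edgeR adjusted p = 0.00273) and rose with the inhibitor (2.84, SE 0.43, adjusted p = 0.000475). Col4a3 likewise fell (-2.22, SE 0.46, adjusted p = 0.00286) and rose (2.54, SE 0.46, adjusted p = 0.0014). Without the 4 libraries with Foxj1 counts, which include WT 1 and WT 4, the differences from WT were -1.27 (adjusted p = 0.0413) and -1.19 (adjusted p = 0.0485), and the rises with the inhibitor were 2.53 and 2.34. The epithelium and mesothelium markers summed to 69.7 to 111 CPM in WT, 25.9 to 43.5 in untreated and 18.7 to 95.1 in treated libraries. Of 10 tested markers 4 were lower in untreated libraries, where 19.7% of all genes were lower. With the inhibitor 1 was higher, where 18.5% of all genes were higher. Untreated libraries were below WT in both this sum and Col4a4, while treated 2 had the lowest sum of all at 18.7 CPM and 9.58 CPM of Col4a4. The part of such cells in the values of Col4a3 and Col4a4 was not tested. Col4a3 overlaps the noncoding C430014B12Rik by 563 exonic bases on the other strand, which had a mean of 0.625 to 0.93 CPM in the groups, and the strand setting of the counting is not given in the sources used here.

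Col4a4 and Col4a3 are transcribed away from each other from starts 71 bases apart, and that stretch, which is shown because both genes moved together, follows on the Col4a4 strand, from RefSeq on GRCm38.p6.
Col4a4 to Col4a3 (chr1:82586850-82586920, minus strand): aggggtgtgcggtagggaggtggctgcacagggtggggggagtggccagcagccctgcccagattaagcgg
It has no TATA box, CCAAT box or GC box of the letters given above on either strand. The X-linked pair Col4a6 and Col4a5 is arranged the same way with 1308 bases between the genes, and neither passed. Col4a5 was 13.7 ± 7.87, 19.6 ± 2.73 and 15.3 ± 1.74 CPM in WT, untreated and treated libraries and Col4a6 5.05 ± 4.55, 3.2 ± 0.785 and 5.75 ± 1.47. WT 1 was the highest library for both, with 24.2 and 11.8 CPM. Without WT 1 Col4a5 passed as higher in untreated libraries (log2 fold change 0.95, adjusted p = 0.00907, against 0.52 with it), as it did without the 4 libraries with Foxj1 counts (1.29, adjusted p = 0.00327). Col4a6 passed as higher with the inhibitor without WT 1 (0.85, adjusted p = 0.0363, against 0.85 with it).

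Type VI collagen is assembled from the α1 and α2 chains with 1 further chain. Col6a1 had 961, 1139, 767 and 822 CPM in WT, 945, 1141, 1261 and 929.8 in untreated and 1071, 1415, 699 and 529 in treated libraries, and Col6a2 had 782, 895, 607 and 722 CPM in WT, 889, 1091, 1219 and 813 in untreated and 993, 1386, 619.7 and 464 in treated libraries. The groups overlapped for both genes, treated 2 was the highest library and treated 4 the lowest, and the log2 fold changes of 0.21 and 0.42 against WT and -0.20 and -0.21 with the inhibitor did not pass (SE 0.26 and 0.29). Col6a3, the usual partner of these chains, whose cleaved end is the adipokine endotrophin, was 191 ± 88.5, 344 ± 46.4 and 181 ± 71.2 CPM and missed the threshold in both comparisons (log2 fold change 0.85, SE 0.34, adjusted p = 0.0692 against WT and log2 fold change -0.93, SE 0.34, adjusted p = 0.0531 with the inhibitor). It passed against WT in 6 and with the inhibitor in 7 of the 22 alternatives, DESeq2, the replicate block (adjusted p = 0.0212 and 0.0151) and the fit without WT 1 (0.00939 and 0.0231) among both. Col6a5, a chain that can take the place of Col6a3, did pass. It had 126, 15.6, 24.7 and 38 CPM in WT, 238, 363, 228 and 232 in untreated and 68.4, 61.2, 73.9 and 56.6 in treated libraries, and each untreated library exceeded each other library. Its log2 fold change was 2.37 (SE 0.53, adjusted p = 0.0049) against WT and -2.03 (SE 0.52, adjusted p = 0.0109) with the inhibitor. WT 1 was well above WT 2 to 4, and without WT 1 the first value was 3.34 (adjusted p = 2.35e-05). DESeq2 gave no adjusted p for Col6a5 against WT or with the inhibitor. Col6a4 and Col6a6, which lie next to Col6a5 on chromosome 9 in the same direction, were 0.66 ± 0.312 and 25.1 ± 8.07 CPM in untreated libraries and 0.609 ± 0.422 and 23 ± 8.25 in WT, and passed nowhere.

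The FACIT chains, which sit on fibrils, were higher in untreated libraries where they passed. Col14a1 had 30.1, 12.6, 16.7 and 30.2 CPM in WT, 35.5, 63.7, 51.2 and 63.7 in untreated and 19.4, 11.9, 23.1 and 15.2 in treated libraries without overlap of the untreated group. It rose (log2 fold change 1.25, SE 0.31, edgeR adjusted p = 0.00741) and fell with the inhibitor (log2 fold change -1.62, SE 0.31, adjusted p = 0.00199), and without the 4 libraries with Foxj1 counts, in which WT 1 and WT 4 are the highest of WT, the rise was 1.86. It did not pass against WT without WT 2 and WT 3 (adjusted p = 0.0616). Col16a1 had 37.5, 71.4, 21.7 and 55.2 CPM in WT, 86.4, 79, 102 and 113 in untreated and 86, 89, 25.6 and 18.9 in treated libraries and missed the threshold (log2 fold change 1.03, SE 0.50, adjusted p = 0.119 against WT and log2 fold change -0.79, SE 0.49, adjusted p = 0.23 with the inhibitor), with 21.7 to 71.4 CPM across WT and 18.9 to 89 across treated libraries. It passed against WT in the fit of the compared groups alone (adjusted p = 0.0322). Col12a1 rose against WT (log2 fold change 1.43, SE 0.51, adjusted p = 0.0426), a call that stood in 12 of 22 alternatives and did not pass when WT 2, 3 or 4 or untreated 2, 3 or 4 was left out, nor without the 4 libraries with Foxj1 counts (1.53, adjusted p = 0.145), without WT 2 and WT 3 (adjusted p = 0.188), on log2 FPKM with limma (0.0556) or with no low-count filter (0.109). Leaving out 1 library gave adjusted p up to 0.106. Its levels were 26.5, 24.8, 12.1 and 16.2 CPM in WT, 33.3, 61.9, 59.5 and 60.4 in untreated and 44.9, 48.5, 18.4 and 6.82 in treated libraries, and treated 4 was the lowest treated library. Col20a1 was 2.91 ± 0.79, 6.59 ± 0.683 and 3.88 ± 1.32 CPM, rose (log2 fold change 1.18, SE 0.27, adjusted p = 0.00515) and fell with the inhibitor (log2 fold change -0.76, SE 0.27, adjusted p = 0.0416), the latter in 11 of 22 alternatives. The fall did not pass with the replicate block (adjusted p = 0.0521), with no low-count filter (0.0679) or without WT 2 and WT 3 (0.0557), nor when WT 3, any untreated library, or treated 1, 2 or 4 was left out, with adjusted p up to 0.0984. Its exons overlap BX649560.1 by 79 bases on the same strand, so its counts are uncertain. BX649560.1 had a mean of 5.42, 7.68 and 4.90 CPM in WT, untreated and treated libraries. It also rose against WT (log2 fold change 0.50, edgeR adjusted p = 0.0259) and fell with the inhibitor (-0.65, adjusted p = 0.00776). The part of this overlap in the calls of Col20a1 was not tested. Col9a3, at under 1 CPM in each group, did not pass, and its exons overlap those of Tcfl5 by 234 bases on the other strand.

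Both tested short-chain genes, which encode the lattice-forming type VIII collagen of vessel walls, rose. Col8a1 (ENSMUSG00000068196.5, chromosome 16, 57624258 to 57754737) had 8.77, 7.64, 9.35 and 12.6 CPM in WT, 27.3, 47.8, 32.8 and 56.8 in untreated and 12.3, 21.8, 12.9 and 12.3 in treated libraries. Untreated libraries did not overlap the others, and treated 2 was the highest treated library. Its log2 fold change against WT had the smallest adjusted p of any collagen (log2 fold change 2.10, SE 0.27, edgeR adjusted p = 0.000216), and it fell with the inhibitor (log2 fold change -1.47, SE 0.26, adjusted p = 0.00129). Both calls held in the 22 refits and other tests, and both estimates are above 2-fold. Col8a2 had 1.25, 0.608, 0.531 and 1.22 CPM in WT, 1.91, 2.91, 1.65 and 2.69 in untreated and 2.07, 0.708, 2.17 and 1.36 in treated libraries, rose against WT (log2 fold change 1.33, SE 0.41, adjusted p = 0.0233) and missed the threshold with the inhibitor (log2 fold change -0.54, SE 0.40, adjusted p = 0.317). The rise did not pass without WT 2 (adjusted p = 0.0646), WT 3 (0.0655), untreated 2 (0.0588) or both WT 2 and WT 3 (0.194), and was 1.99 without the 4 libraries with Foxj1 counts. The smooth muscle and pericyte markers, cells that share the vessel wall, summed to 1739 to 2565 CPM in WT, 810.0 to 1196 in untreated and 1587 to 1685 in treated libraries. WT 1 set the top of the WT range, and WT 2 to 4 held 1739 to 1744 CPM. Cnn1, a marker that fell in untreated libraries, ranged from 2.57 to 149 CPM within WT. Of the 10 markers 5 fell and 1 rose in untreated libraries, where 19.7% of all genes fell and 19.6% rose. With the inhibitor 3 rose and 1 fell, where 18.5% of all genes rose and 18.8% fell. Their part in the type VIII values was not tested.

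Of the transmembrane chains, 1 passed against WT and 1 with the inhibitor. Col23a1 had 21, 5.54, 4.84 and 9.53 CPM in WT, 4.28, 4.1, 4.89 and 3.87 in untreated and 9.52, 9.26, 6.93 and 6.87 in treated libraries. It fell against WT (log2 fold change -1.26, SE 0.39, edgeR adjusted p = 0.0225) and missed the threshold with the inhibitor (log2 fold change 0.93, SE 0.39, adjusted p = 0.0782). With the inhibitor it passed as higher without WT 1 (0.93, adjusted p = 0.00658), without WT 3 (0.0489), without the 4 libraries with Foxj1 counts (0.00939), without WT 2 and WT 3 (0.0141) and in the fit of the compared groups alone (0.00253). WT 1 and WT 4 were the highest WT libraries, and without the 4 libraries with Foxj1 counts the fall from WT ended (-0.29, adjusted p = 0.306), while without WT 1 alone it was -0.63 (adjusted p = 0.0498). The fall from WT also did not pass without untreated 1 (adjusted p = 0.0519), 2 (0.0613) or 4 (0.0616). Nor did it pass with library size alone in place of TMM scaling or with limma on log2 FPKM. It stood in 16 of 22 alternatives. Col17a1, a hemidesmosome component of epithelia, had 1.63, 1.69, 1.46 and 1.57 CPM in WT, 0.825, 1.58, 1.15 and 1.27 in untreated and 3.47, 1.96, 2.28 and 2.15 in treated libraries and rose with the inhibitor (log2 fold change 1.02, SE 0.27, adjusted p = 0.0113), which did not pass without the libraries with Foxj1 counts (0.78, adjusted p = 0.106). Col13a1 was below 1 CPM on average in each group and did not pass with all libraries (log2 fold change -1.49, SE 0.65, adjusted p = 0.0874 against WT), while without WT 1 it passed as lower in untreated libraries (-1.77, adjusted p = 0.0444). Col7a1, the anchoring fibril chain, had 7.08, 2.43, 2.32 and 1.28 CPM in WT, 2.89, 2.12, 2.3 and 4.15 in untreated and 1.55, 1.63, 1.11 and 1.36 in treated libraries, with no call (log2 fold change -0.20, SE 0.44, adjusted p = 0.756 against WT and log2 fold change -1.01, SE 0.46, adjusted p = 0.0989 with the inhibitor). WT 1 was its highest library, and it passed as lower with the inhibitor without WT 1 (-1.02, adjusted p = 0.0185) and in the fit of the compared groups alone (adjusted p = 0.0172). Col28a1, known from the surface of Schwann cells, had 4.57, 0.743, 5.71 and 4.83 CPM in WT, 7.58, 8, 8.54 and 11.5 in untreated and 4.4, 14.6, 12.9 and 5.14 in treated libraries and no call. Of 8 tested Schwann cell markers 2 rose and 2 fell in untreated libraries, and 2 rose and 2 fell with the inhibitor. Their median log2 fold change was -0.47 against WT and 0.41 with the inhibitor. The whole list of 10 markers summed to 215 to 316 CPM in WT, 145 to 175 in untreated and 252 to 383 in treated libraries. The untreated libraries lay below the others in this sum without overlap. Of all genes 19.6% rose and 19.7% fell in untreated libraries, and 18.5% rose and 18.8% fell with the inhibitor. No difference of these markers from all genes was tested.

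**Figure D3:**
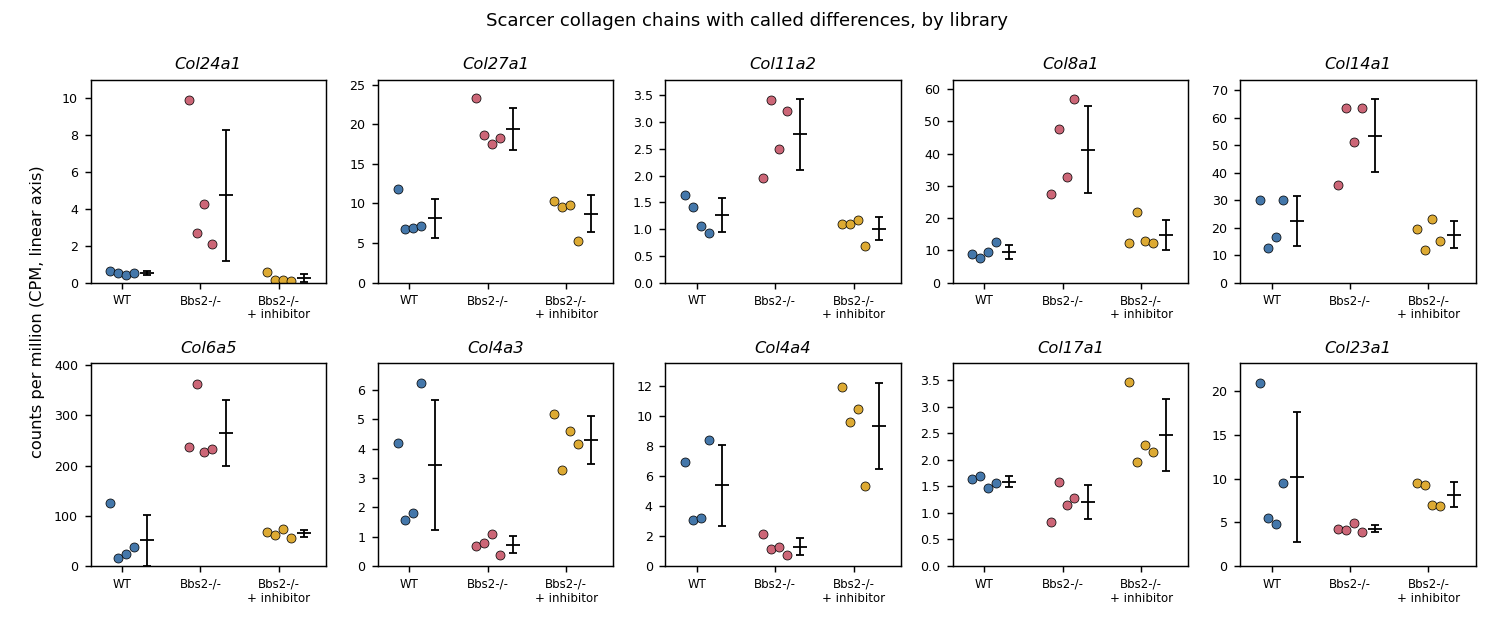
CPM (linear axis from 0, scaled for each gene) of 10 scarcer collagen chains in the 4 libraries of each group (points, replicates 1 to 4 from left to right) with the mean and SD (bar at right). These chains were picked because they were called against WT or with the inhibitor, so separation of the groups is favoured by the choice. Scarcer chains without a call are not shown. Col24a1, Col27a1, Col11a2, Col8a1, Col14a1 and Col6a5 have their 4 untreated libraries above all others, Col4a3 and Col4a4 have them below all others, and WT 1 stands high for Col6a5 and Col23a1.

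Summed over their chains, fibrillar collagens held 4154 ± 1057 CPM in WT, 5348 ± 282 in untreated and 3126 ± 704 in treated libraries (SD, n = 4). Basement membrane chains held 3719 ± 175, 4243 ± 456 and 4269 ± 1070.4, and the other chains 2062 ± 374, 2979 ± 402 and 2224 ± 936. These sums are weighted to long and abundant chains, and fibrillar Col5a3 adds to the sum in the opposite direction to types I and III. As a share of all collagen counts, fibrillar chains took 37.9 to 47.9% in WT, 40.6 to 45% in untreated and 29.6 to 34.6% in treated libraries, and basement membrane chains 31.8 to 41.8%, 32.2 to 34.9% and 43.2 to 46.6%. Treated libraries thus had the lowest fibrillar and the highest basement membrane shares without overlap with either other group, and WT 1 set the high end of the fibrillar share in WT. No test was made of these sums.

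**Figure D4:**
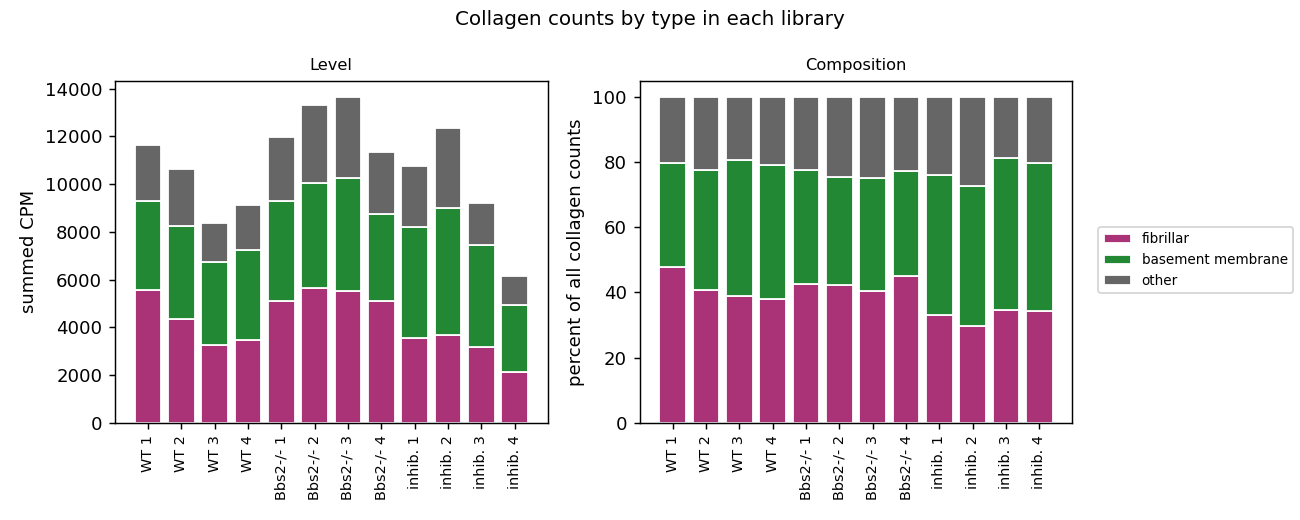
Stacked bars of summed collagen CPM (left, axis from 0) and of their percentage (right) by class in each of the 12 libraries, with inhib. for treated libraries. The fibrillar share in the 4 treated libraries is below that in every WT and untreated library, and treated 4 has the least collagen in all.

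Treated Bbs2-/- libraries against WT gave no collagen past the threshold in edgeR (0 of 35), where 0.257% of all genes passed, 0.175% higher and 0.0814% lower. DESeq2 and the other alternatives also gave 0. At an unadjusted p under 0.05 there were 8 of 35 chains, or 22.9%, beside 1697 of all 15968 genes, or 10.6%, a difference that was not tested. They were Col1a1 (-0.82, SE 0.32), Col1a2 (-0.62, SE 0.26), Col5a2 (-0.55, SE 0.21) and Col7a1 (-1.21, SE 0.46) with lower values in treated libraries, and Col8a1 (0.63, SE 0.27), Col17a1 (0.63, SE 0.27), Col6a6 (0.69, SE 0.29) and Col28a1 (1.22, SE 0.53) with higher ones. Col3a1 had -0.49 (SE 0.23, edgeR adjusted p = 0.489), Col5a3 -0.21 (SE 0.18) and Col4a1 0.25 (SE 0.20). The median over the 35 chains was 0.09, and -0.49 over the 9 fibrillar chains, against -0.02 for all genes. With these standard errors, a chain could differ by a sizeable fraction of its level and not pass, so the values do not show that treated and WT tissue have equal collagen RNA.

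Genes that fold, cut and cross-link collagen were listed apart from the chains. Of all tested genes 19.6% were higher and 19.7% lower in untreated libraries against WT, and 18.8% were lower and 18.5% higher with the inhibitor. No difference of a list from these shares was tested. Of 22 tested genes of folding and hydroxylation in the endoplasmic reticulum, 7 rose and 1 fell in untreated libraries, and 9 fell and 1 rose with the inhibitor (median log2 fold change 0.18 and -0.16). Plod2, the lysyl hydroxylase of the telopeptides, had log2 fold changes of 1.15 and -1.37, Colgalt1, which adds galactose to hydroxylysine, 0.97 and -0.99, P3h3 1.09 and -0.76, and the prolyl isomerase Fkbp10 0.81 and -0.66. Of 12 tested genes of procollagen cleavage and cross-linking, 6 rose and 1 fell, and 6 fell and 1 rose with the inhibitor. Pcolce, the enhancer of C-propeptide removal, was 53.6 ± 4.96, 145 ± 8.19 and 51.4 ± 11.2 CPM (log2 fold changes 1.44 and -1.50). The cross-linking oxidase Lox had 0.73 and -0.80. The gene that fell in untreated libraries was Pxdn (-0.77, then 0.73 with the inhibitor), which encodes the peroxidase that forms sulfilimine bonds in type IV collagen and is named as the single exception. Of 9 proteoglycans and organizers of fibrils 6 rose and none fell, and 6 fell with the inhibitor, with Lum at 2.03 and -1.79 and Bgn at 1.58 and -1.19.

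Partners of type IV collagen in the basement membrane were listed apart. Of 15 tested laminin, nidogen and heparan sulfate proteoglycan genes, 1 rose and 3 fell in untreated libraries, and 5 rose and none fell with the inhibitor (medians -0.23 and 0.38). Of all genes 19.6% were higher and 19.7% lower against WT, and 18.5% were higher and 18.8% lower with the inhibitor. No difference from all genes or from the other lists was tested, for these partners or for the receptors and breakdown genes below. Nid1, which links laminin to type IV collagen, had log2 fold changes of -0.61 and 0.49 and passed in both. Lamb2 had -0.42 and 0.56 and passed in both, while Lama4 (-0.77) fell and did not pass with the inhibitor (0.38). Lama2, the laminin chain of muscle and nerve, was the one that rose (0.53). Of 12 tested collagen receptors 6 rose and 1 fell, and 6 fell and 1 rose with the inhibitor. Antxr1, which binds type VI collagen, had 1.42 and -1.21. Lair1, an inhibitory collagen receptor of leukocytes, had 3.80 and -3.70, Itga11, the α11 integrin of fibroblasts, 0.63 and -1.29, and the uptake receptor Mrc1, which is also in the macrophage list, 2.09 and -2.01. Of 16 tested genes of collagen breakdown and its inhibitors 11 rose and 3 fell, and 10 fell and 3 rose. The inhibitor Timp1 had 3.29 and -3.40 and Timp4, which fat expresses, -2.58 and 2.00.

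Markers of cell types that fat holds were read beside the chains. Of all genes 19.6% rose and 19.7% fell in untreated libraries, and 18.5% rose and 18.8% fell with the inhibitor. No difference of a marker list from these shares was tested. Of 14 fibroblast and preadipocyte markers 7 rose and 1 fell in untreated libraries, and 6 fell and 1 rose with the inhibitor. Mfap5 (1.05 and -1.28) and Thy1 (0.70 and -1.08) were among the first, Dcn and Lum are also in the proteoglycan list, and the exception was Gsn (-1.50 and 1.13), which many other cells express. Because Gsn is far more abundant than the rest, the summed level of the list went the other way, at 9099 to 11238 CPM in WT, 4542 to 6122 in untreated and 6956 to 11322 in treated libraries. The 12 adipocyte markers summed to 45500.4 to 70611, 17436 to 22970.3 and 46163 to 73533 CPM, with 11 lower in untreated libraries and 11 higher with the inhibitor. The 12 macrophage markers summed to 865 to 2778, 6660.0 to 9368 and 792 to 2002 CPM, with 10 higher and then 11 lower. Of 12 endothelial markers 1 rose and 1 fell in untreated libraries and 7 rose with the inhibitor, at summed levels of 998 to 1663, 820.1 to 1380.4 and 1459 to 2052 CPM. Of 6 tested skeletal muscle markers 3 rose and 1 fell, and 2 fell with the inhibitor, at no more than 74.2 CPM in sum in any library. The part of cell content in the collagen values was not tested.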

How the data were processed

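The labels describe RNA from adipose tissue isolated with TRIzol and RNeasy columns and made into libraries with a stranded TruSeq mRNA kit. The authors deposited estimated counts per gene, unscaled, of which 93.0 to 94.2% were whole within 1e-06, and log2 FPKM values with the same upper quartile (3.96) in every library. Per the submitters' processing notes, reads were placed on mm10. Which aligner, counter, strand setting and log offset were used is not given in the sources used here. Symbols and coordinates came from GENCODE M21 on the same build (52207 of 53431 rows matched), and sequences from RefSeq on GRCm38.p6.

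Estimated counts were rounded, scaled by TMM, filtered by filterByExpr and entered in a single robust quasi-likelihood fit (edgeR 4.0.16, R 4.3.3) over the 12 libraries, with group as its term. Benjamini-Hochberg adjustment ran over 15968 genes, and the threshold was 0.05. No library repeated another of its group (chi-square over its degrees of freedom, 18.2 to 92.6). Alternatives were DESeq2 1.42.0, other scalings and filters, the compared groups alone, limma 3.58.1 on log2 FPKM, a replicate block, a minimum fold of 2 and leaving out libraries.

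The members and lists were chosen with earlier results of these data known. Values of each library are given for the 2 chains highest by log2 FPKM of each type and for chains that went against most of the called ones, and Col1a1, Col1a2, Col5a2, Col24a1, Col6a5 and Col12a1 were added after their values were seen. Genes named from a list are among its 4 with the smallest p in untreated Bbs2-/- against WT, not always all of them, except that Pxdn, Dcn, Plin1, Fabp4, Acan and Matn1 were named after their values were seen.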

Additional observations from a re-analysis of the deposited data

Results flagged for a closer look

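A library was far from the other 3 of its group for 10 of 114 groups of values examined (35 tested chains and 3 class sums in 3 groups), by Dixon's gap test for 4 values, where chance flags about 1 in 20. Treated 4 was low for Col3a1 (649 CPM against 1078 to 1166), Col27a1 (5.19 CPM against 9.53 to 10.2), Col11a2 (0.682 CPM against 1.09 to 1.16) and Col9a3 (0.105 CPM against 0.582 to 0.621 in the other treated libraries). Among the other treated libraries, treated 1 was high for Col24a1 (0.569 CPM against 0.105 to 0.163) and treated 2 for Col8a1 (21.8 CPM against 12.3 to 12.9).

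In untreated libraries, untreated 1 was low for Col12a1 (33.3 CPM against 59.5 to 61.9), untreated 4 was low for Col6a3 (274 CPM against 364 to 372) and untreated 2 was high for Col6a5 (363 CPM against 228 to 238). WT 1, the library with epididymis RNA, was high for Col27a1 (11.8 CPM against 6.76 to 7.15).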

How the results depend on the processing

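Against WT, 15 collagens were called in untreated libraries, and 9 (5 higher, 4 lower) without WT 2 and WT 3, whose library names are of another type, a fit that keeps WT 1 and WT 4. Leaving out 1 library gave 11 to 19 calls, the highest without WT 1, and for treated against untreated libraries 14 to 19 against 15. Without the 4 libraries with Foxj1 counts there were 15 calls in each. The groups share replicate numbers, but the labels tie them to nothing, and 4 of 12 same-numbered pairs deviated together with a correlation above 0.1. The correlations were 0.308, 0.116, 0.144 and 0.0999 between untreated and treated libraries 1 to 4. They were -0.021 to 0.016 between WT and untreated libraries and -0.149 to 0.278 between WT and treated ones. Pairs with different numbers were not compared. The numbers were not taken as pairs in the main fit. With the replicate block there were 17, 15 and 0 calls in the 3 comparisons. Library size in place of TMM scaling moved the median of all genes against WT from -0.019 to 0.164, gave 12 higher and 3 lower chains in place of 11 and 4, and moved the summed level of fibrillar chains in untreated libraries from 5348 to 5748 CPM and that of basement membrane chains in WT from 3719 to 3512 CPM. Requiring an estimate of at least 2-fold, with no test against that size, left 13 and 12 calls. No called chain changed sign in any alternative. Of 765 refits of single chains in each comparison, 33 lost a call against WT and 17 gained one, 12 and 16 did so for treated against untreated libraries, and none for treated libraries against WT. For scarce chains such as Col4a3, fold changes on the log2 FPKM scale were smaller (-0.39 against -2.22 for untreated libraries against WT) on a scale whose lowest value is 0. The 10 chains highest per length were the same 10 with CPM per kilobase of exon.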
